A study of Mus musculus with 10 samples.

Results

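Nuclear long noncoding RNAs (lncRNAs) were followed in RNA from the cell bodies (soma) and neurites of Neuro2a (N2A) cells, derived from a mouse neuroblastoma, which grow neurites when serum is withdrawn. The 8 RNAs named for this purpose were Malat1, Neat1, Kcnq1ot1, Airn, Rian, Meg3, Mirg and Miat, chosen by name as RNAs known to stay in the nucleus. Of these, 6 matched a gene name in the deposited table of 13698 genes, as 8 of its 17292 transcripts, and Mirg and Miat were not analysed here. All cells were transiently transfected with a plasmid. The controls were CTG0, a DMPK fragment without repeats (DMPKS in the labels), and the tail of the kinesin Kif1bβ (Kif1b-beta). The perturbations were CTG480, the fragment with an expanded CTG repeat that sequesters MBNL proteins (DT480), and the tails of Kif1bα (Kif1b-alpha) and Kif1c, which lack the motor domain and act as dominant negatives. Cells were grown on membranes with 1 µm pores through which neurites extended over 48 h. Cell bodies were then scraped from the membrane, and what remained on the membrane was lysed as the neurite fraction. Each of the 5 transfections gave 1 library of soma and 1 of neurites (10 in total), each made from 300 ng of RNA after removal of ribosomal RNA. The experiment was done a single time, so the 5 transfections stand in for replicates and every p-value measures the spread between transfections.

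Most messenger RNAs leave the nucleus, whereas these lncRNAs act where they are made. Malat1 lies in nuclear speckles, bodies rich in splicing factors, and is among the most abundant lncRNAs of mammalian cells. The long form of Neat1 is the scaffold of paraspeckles, a second kind of nuclear body, and its short form shares the same start but is not sufficient to build them. Kcnq1ot1 and Airn are imprinted RNAs made from the paternal chromosome that stay at their own locus and silence neighbouring genes there. Meg3, Rian and Mirg are made from the maternal chromosome of the imprinted Dlk1-Dio3 region, and Rian and Mirg carry small nucleolar RNAs and microRNAs. Miat is a nuclear lncRNA of neurons. Neurites hold no nuclei. The level of such an RNA in a neurite library, over that in its soma library, is therefore a relative measure of nuclear RNA sequenced with the neurite fraction. It depends on how libraries are scaled and is not an amount.

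The 3′ ends of 4 transcripts are shown because they mark how the RNAs are ended, which differs between the members. They were read from the GENCODE transcripts of GRCm38, the build of the deposited values. Malat1 and long Neat1 do not end in an ordinary poly(A) tail. Their end is a triple helix between runs rich in U and a tract rich in A, with which the RNA is known to be kept stable in the nucleus. Short Neat1 and Kcnq1ot1 have the polyadenylation signal AATAAA. Capitals mark letters only. In the first pair of sequences they mark U-rich runs (T broken by C, G or GC, written as DNA) and the A-rich tract, and in the second pair AATAAA. Malat1 has 3 such runs and long Neat1 has 2. The middle run of Malat1 lies between the inverted repeats cctgag and ctcagg, so a mark does not place a run in the helix.
Malat1 NR_002847, chr19:5795982-5796091, minus strand: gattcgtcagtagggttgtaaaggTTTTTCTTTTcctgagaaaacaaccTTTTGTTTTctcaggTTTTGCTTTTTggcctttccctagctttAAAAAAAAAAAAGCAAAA
Neat1 long form NR_131212, chr19:5824708-5824817, minus strand: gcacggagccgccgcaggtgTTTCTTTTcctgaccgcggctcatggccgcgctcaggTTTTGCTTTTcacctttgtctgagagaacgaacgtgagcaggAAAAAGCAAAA
Neat1 short form NR_003513, chr19:5842307-5842366, minus strand: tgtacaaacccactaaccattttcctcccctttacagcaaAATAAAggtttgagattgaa
Kcnq1ot1 NR_001461, chr7:143203458-143203517, minus strand: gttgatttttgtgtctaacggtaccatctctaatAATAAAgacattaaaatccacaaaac
The long Neat1 model ended at the last base of its A-rich tract. The tract of Malat1 lay 292 bases before the end of its annotated model, whose own last 60 bases held AATAAA. The last 60 bases of 63.1% of the 11150 tested transcripts with a sequence held AATAAA on the transcript strand. A run of at least 4 A, GC and 4 A was found in the last 60 bases of 13 of them (0.117%). Such a match describes the letters in the window only.

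The transcript models differed widely in size. Kcnq1ot1 is a single exon of 93092 nt at chr7:143203458-143296549 on the minus strand, inside Kcnq1 (chr7:143106362-143427042, plus strand). The long form of Neat1 is a single exon of 20771 nt at chr19:5824708-5845478 on the minus strand. The short form has 3004 nt in 2 exons and lies wholly within the long form, of which it makes up 14.5%. Malat1 is a single exon of 6983 nt at chr19:5795690-5802672 on the minus strand. Meg3 has 14548 nt in 5 exons at chr12:109545398-109571726 on the plus strand. The Airn transcript NR_027772 has 521 nt in 2 exons between chr17:12741330 and 12830250 on the plus strand, and its gene overlaps the minus-strand gene Igf2r (chr17:12682406-12769664). Reads from the unspliced Airn RNA outside these exons do not enter its value. No GENCODE model matched the second Airn transcript, NR_027784, or Rian (NR_028261), whose gene lies at chr12:109603940-109661716 on the plus strand. Exons of other genes overlapped Kcnq1ot1 on the opposite strand over 1119 bases, Kcnq1 among them. For Malat1 these were 86 bases of Gm27694 on the same strand and 453 bases of Gm37376 on the opposite strand. Meg3 shared 94 bases with Mir770 on the same strand and 1228 bases with Gm26906 on the opposite strand. Long and short Neat1 shared 384 and 375 bases with Gm27505, Gm27533 and Gm28006 on the same strand. The library kit keeps the strand of the RNA, but whether quantification used it is not given in the sources used here, so reads of an antisense partner may be included in these values. Kcnq1 itself was not analysed here.

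The values are linear TPM, a measure of abundance scaled to transcript length and library total, and the authors normalized them between libraries by cyclic loess. The sums therefore differed between libraries, at 1044111 to 1159192 in soma and 849069 to 887258 in neurites. TPM keep no record of depth, which is therefore unknown. Libraries of the same fraction had Spearman correlations of 0.981 to 0.989 across the 9853 genes that averaged at least 5 TPM, and soma with neurite libraries 0.965 to 0.980. Of 16 markers of neuroblastoma and neurons, 13 were in the table and 11 passed the minimum of 5 TPM, among them Tubb3 (388 TPM in soma) and Chga (146 TPM). Their summed level was 1427 to 1511 TPM in soma and 1254 to 1336 TPM in neurites. Of 20 markers of other cell types, 4 were in the table (Col1a1, Mbp, Pecam1 and Des), none averaging 5 TPM or more. Together they reached 7.16 to 9.02 TPM in soma and 7.10 to 9.13 TPM in neurites. In bulk libraries a change in the share of cell bodies and a change in RNA per cell cannot be told apart.

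Levels of the 6 RNAs spanned more than 3 orders of magnitude, and every one of them had a value above 0 in all neurite libraries. For Meg3 these values were only 0.145 to 0.321 TPM, which with depth unknown do not by themselves show detection. Malat1 was the highest, with 1653 ± 133 TPM (SD, n = 5) in soma and 1225 ± 124 TPM in neurites, and made up 94.3% to 95.4% of the summed TPM of the 6. Neat1 followed with 58.9 ± 4.21 TPM in soma and 46.4 ± 2.94 TPM in neurites. Airn had 17.8 ± 3.21 TPM in soma and 8.78 ± 1.48 TPM in neurites. Kcnq1ot1 had 12.7 ± 1.06 TPM and 7.11 ± 0.566 TPM. Airn and Kcnq1ot1 overlapped in range in both fractions, but Airn had the higher value in every library. This difference in level was not tested. Rian had 3.76 ± 0.376 TPM in soma and 3.03 ± 0.304 TPM in neurites. Meg3 was the lowest, with 0.359 ± 0.0717 TPM and 0.248 ± 0.0639 TPM. Apart from Airn and Kcnq1ot1, no neighbours in this order overlapped in range in either fraction. Together the 6 RNAs took 0.140% to 0.175% of the summed TPM in soma and 0.131% to 0.163% in neurites. This share, which depends on the sum of each library, was higher in neurites than in soma in the Kif1bα tail (0.158% and 0.149%) and the Kif1bβ tail (0.163% and 0.140%), and lower in the other 3 transfections.

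**Figure D1:**
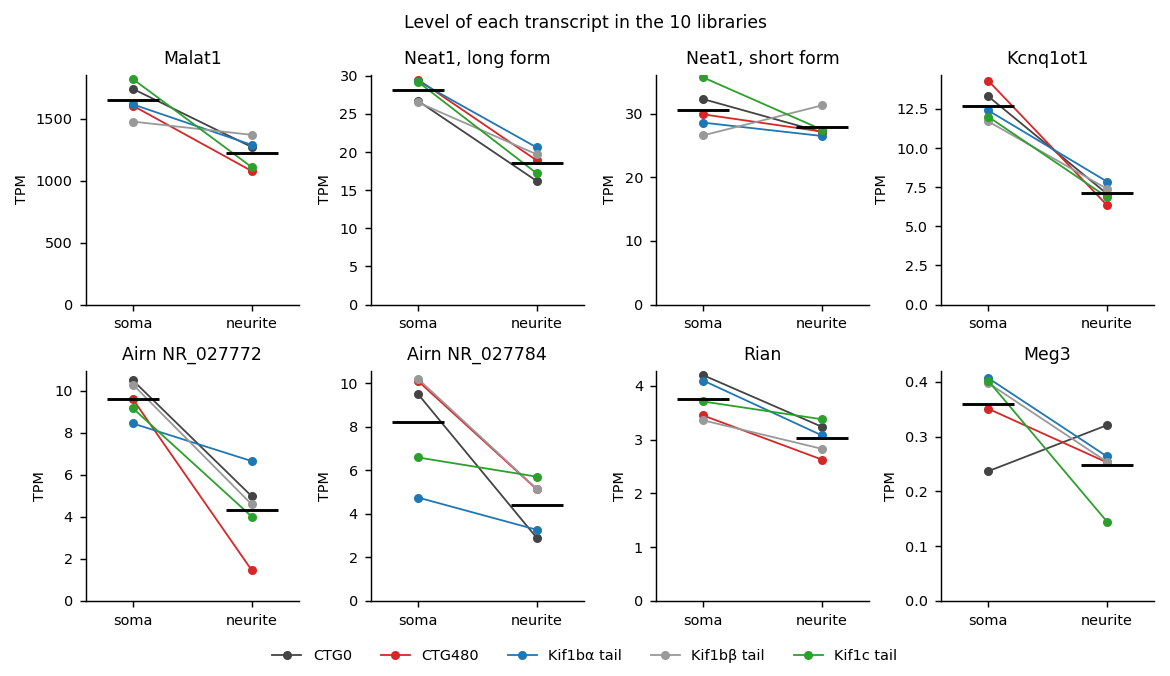
TPM of the 8 transcripts in soma and neurite libraries, with 1 line per transfection, black bars at the mean of 5 libraries and every axis starting at 0. Lines slope down from soma to neurites in all 5 transfections for 6 transcripts, and slope up in the Kif1bβ tail for short Neat1 and in CTG0 for Meg3.

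The first comparison asked whether these RNAs were lower in neurites than in soma. All 4 members with a mean of at least 5 TPM, Malat1, Neat1, Kcnq1ot1 and Airn, were lower in neurites, each in 5 of 5 transfections and with no overlap between soma and neurite libraries. Neurite levels were nevertheless 33.4% to 96.0% of the soma level of the same transfection. Of the 9853 genes tested, 18.6% were called higher in soma and 19.4% higher in neurites (limma, adjusted p under 0.05). All 4 members were among those called higher in soma. The share of all genes lower in 5 of 5 transfections with no overlap was not counted, so how unusual that pattern is remains unknown. Among the 391 noncoding genes tested, 35.3% were called higher in soma, and their median log2(neurite/soma) was −0.28. The 4 members had a median of −0.63, beside 0.01 for all genes tested.

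Airn, which silences Igf2r on the paternal chromosome, had the lowest mean ratio of the tested members. In soma its summed transcripts reached 20 TPM in CTG0, 19.7 in CTG480, 13.2 in the Kif1bα tail, 20.5 in the Kif1bβ tail and 15.8 in the Kif1c tail. In neurites the values were 7.89, 6.60, 9.93, 9.75 and 9.72 TPM in the same order. All neurite libraries lay below all soma libraries, and the Kif1bα tail had both the lowest soma and the highest neurite value. The mean log2(neurite/soma) was −1.01 (SE 0.160, limma adjusted p = 0.003), and 0.650% of the genes tested lay lower. The 5 ratios ran from −1.57 in CTG480 to −0.41 in the Kif1bα tail. Igf2r, the receptor gene that Airn overlaps, had 14.6 TPM in soma and 14.9 TPM in neurites, a ratio of 0.02 (SE 0.050, adjusted p = 0.751).

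Kcnq1ot1, which silences a cluster of imprinted genes from inside Kcnq1, had the next lowest mean ratio. Its soma levels were 13.3 TPM in CTG0, 14.3 in CTG480, 12.4 in the Kif1bα tail, 11.7 in the Kif1bβ tail and 12 in the Kif1c tail. Its neurite levels were 7.08, 6.35, 7.86, 7.40 and 6.87 TPM in that order. CTG480 had the highest soma and the lowest neurite value, and the fractions did not overlap. The mean ratio was −0.83 (SE 0.089, adjusted p = 0.000811), with 0.802% of genes lower, and the 5 ratios lay between −1.16 and −0.65. Of 11 genes that Kcnq1ot1 overlaps or silences, 4 were measured and tested. Cd81, a tetraspanin of the cell surface, was higher in soma (−0.43, adjusted p = 0.000890). Tssc4 (0.38, adjusted p = 0.00924) and Nap1l4, a histone chaperone (0.20, adjusted p = 0.0102), were higher in neurites, and Osbpl5, a lipid transfer protein, had a ratio of 0.11 (adjusted p = 0.282).

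Malat1 had 1742 TPM in the soma library of CTG0, 1606 in CTG480, 1617 in the Kif1bα tail, 1478 in the Kif1bβ tail and 1821 in the Kif1c tail. The neurite libraries had 1273, 1079, 1290, 1371 and 1111 TPM in that order. The highest neurite library, that of the Kif1bβ tail, stayed below the lowest soma library, which came from the same transfection. The mean ratio was −0.43 (SE 0.083, adjusted p = 0.00627), and 5.31% of genes lay lower. The ratios ran from −0.71 in the Kif1c tail to −0.11 in the Kif1bβ tail, so that neurites held 61.0% to 92.8% of the soma level. Neat1, as the sum of both forms, had a mean ratio of −0.34 (SE 0.068, adjusted p = 0.00755) and 8.99% of genes lay lower. Its soma levels were 53.2 to 65.0 TPM and its neurite levels 43.3 to 51.0 TPM. The ratios of Airn overlapped in range with those of Malat1, Neat1 and Kcnq1ot1. Those of Malat1 also overlapped with Neat1 and Kcnq1ot1, and only Neat1 and Kcnq1ot1 were apart in range. Within every transfection, however, Kcnq1ot1 lay below Malat1, Malat1 below Neat1, and Airn below Neat1. These orders were not tested, and that of Airn with Kcnq1ot1 and Malat1 varied. In the Kif1bα tail Kcnq1ot1 (−0.65) lay below Airn (−0.41). In the Kif1c tail Kcnq1ot1 (−0.80) and Malat1 (−0.71) lay below Airn (−0.69).

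**Figure D2:**
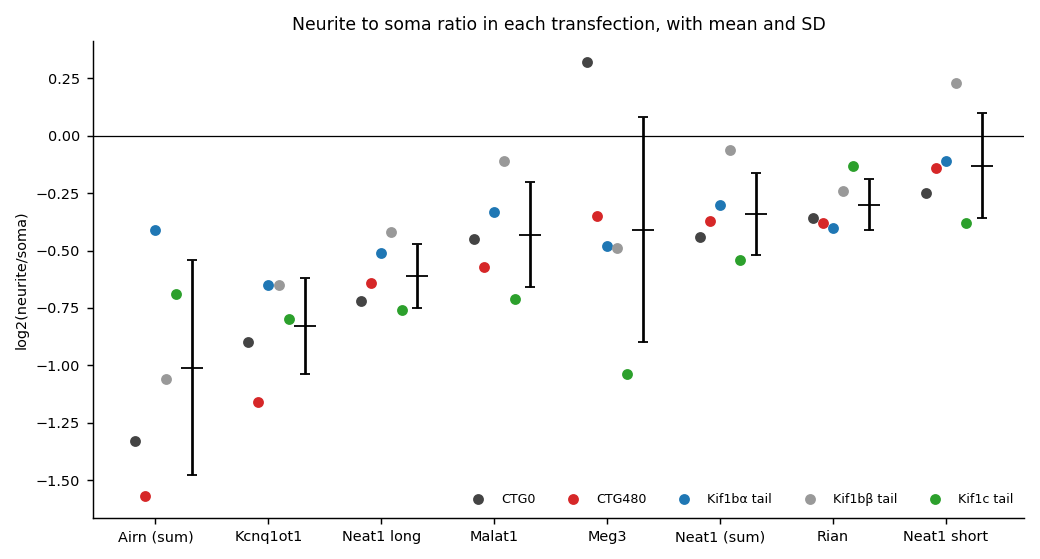
log2(neurite/soma) of each RNA, or form, in each transfection (coloured points) with the mean and SD over 5 transfections (black). Airn, Kcnq1ot1, long Neat1, Malat1, summed Neat1 and Rian lie below 0 in every transfection, whereas Meg3 lies at 0.32 in CTG0 and short Neat1 at 0.23 in the Kif1bβ tail.

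The values of Neat1 came from its 2 forms, which differed in ratio. The long form had 26.7 TPM in the soma of CTG0, 29.5 in CTG480, 29.3 in the Kif1bα tail, 26.5 in the Kif1bβ tail and 29.2 in the Kif1c tail. In neurites it had 16.2, 18.9, 20.6, 19.7 and 17.2 TPM in that order. No neurite library reached a soma library, and the mean ratio was −0.61 (SE 0.064, adjusted p = 0.00264). The short form had 32.3, 29.9, 28.6, 26.6 and 35.7 TPM in soma and 27.1, 27.2, 26.5, 31.3 and 27.5 TPM in neurites. Its fractions overlapped, and its mean ratio of −0.13 did not pass the test (SE 0.088, adjusted p = 0.315). Among the 11515 single transcripts tested, 13.8% were called higher in soma. The ratio of the long form was lower than that of the short form in 5 of 5 transfections, by −0.48 ± 0.11 (SD, n = 5), with a range from −0.66 to −0.39. Rescaling a library moves both forms alike and leaves this difference as it is. An exact paired permutation test gave p = 0.0625, two-sided, the smallest that 5 pairs can give, and the comparison was chosen after the values were seen. The long form made up 45.0% to 50.6% of both forms in soma and 37.4% to 43.7% in neurites, with no overlap. All 3004 bases of the short form occur in the long form, so its level rests on how reads of the shared bases were divided, and the split between the forms is uncertain.

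The 2 Airn transcripts were each lower in neurites. NR_027772 had soma levels of 10.5, 9.60, 8.45, 10.3 and 9.17 TPM in CTG0, CTG480, the Kif1bα, Kif1bβ and Kif1c tails. Its neurite levels were 4.99, 1.47, 6.66, 4.60 and 4.02 TPM. The library of CTG480 was the lowest, and the mean ratio was −1.27 (SE 0.308, adjusted p = 0.0265). NR_027784 had 9.50, 10.1, 4.75, 10.2 and 6.59 TPM in soma and 2.90, 5.13, 3.27, 5.15 and 5.71 TPM in neurites. Here the fractions overlapped, since soma of the Kif1bα tail was low, and the mean ratio was −0.87 (SE 0.222, adjusted p = 0.0312). The 2 ratios differed by −0.40 ± 0.91 (SD, n = 5), lower for NR_027772 in 3 of 5 transfections (exact paired permutation test, two-sided, p = 0.4375). At levels of 1.47 to 10.5 TPM the division of reads between the 2 transcripts is uncertain, and the sum is the firmer value.

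The maternally expressed RNAs of the Dlk1-Dio3 region were low. Rian had 4.2, 3.45, 4.10, 3.36 and 3.71 TPM in soma and 3.24, 2.63, 3.08, 2.83 and 3.38 TPM in neurites, in the order CTG0, CTG480, Kif1bα, Kif1bβ and Kif1c tails. Each neurite library lay below its own soma library, but the ranges of the fractions met. In the fit with no minimum level its ratio was −0.30 (SE 0.104, limma adjusted p = 0.0675), which did not pass. Meg3 had 0.237 to 0.407 TPM in soma and 0.145 to 0.321 TPM in neurites, and its ratio of −0.41 did not pass either (SE 0.248, limma adjusted p = 0.262). The paternally expressed genes of the same region were well above these levels. Dlk1, a membrane protein related to Notch ligands, had 97.9 TPM in soma and 75.6 TPM in neurites (−0.38, adjusted p = 0.00398). Rtl1, a gene derived from a retrotransposon, had 31.1 and 24.9 TPM (−0.32, adjusted p = 0.00872). Listed for the region were 8 protein-coding genes and neighbours, of which 5 were tested. Of these, 3 were higher in soma and none in neurites, beside 18.6% and 19.4% of all genes. The third was the transcription factor gene Yy1 (−0.16), just under the threshold, and the value of Wdr25 was 0.34 (adjusted p = 0.0900). The 51 microRNA genes listed for the region were not analysed here.

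**Figure D3:**
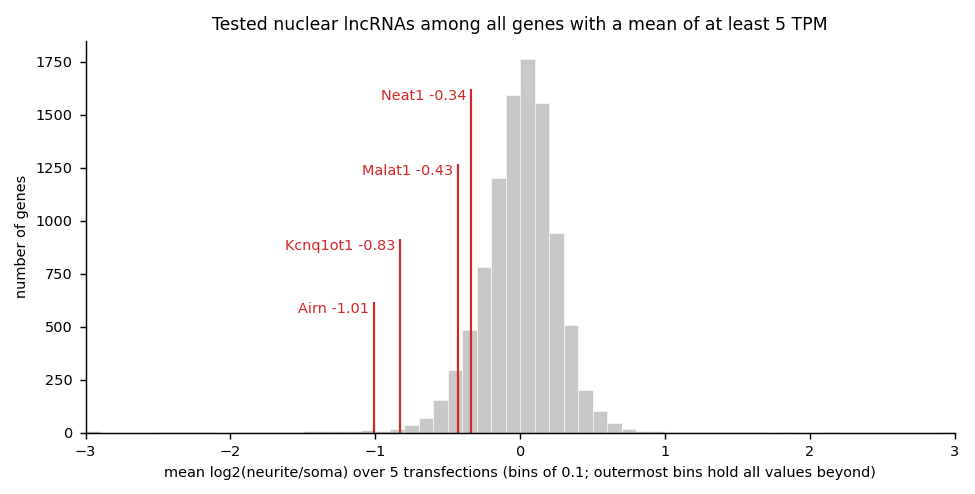
Mean log2(neurite/soma) of the 9853 genes tested, as a histogram in bins of 0.1 with values beyond the axis placed in the outermost bins, and the 4 tested nuclear lncRNAs as red lines of arbitrary height. Airn at −1.01 and Kcnq1ot1 at −0.83 lie in the far lower tail, and Malat1 at −0.43 and Neat1 at −0.34 on the lower shoulder.

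These calls depended in part on how libraries were scaled. When all libraries were brought to the same sum, the median of all genes moved to 0.35, and Airn (−0.68) and Kcnq1ot1 (−0.50) were still called. Malat1 (−0.10, adjusted p = 0.335) and Neat1 (0.00, adjusted p = 0.973) were not. With the same sum over protein-coding transcripts the median was 0.15 and all 4 were called. Rescaling a library shifts every gene alike, so the distance of the 4 members from the median of all genes, 0.35 to 1.03 lower, cannot change with it. This holds by arithmetic. The loess normalization of the authors was not varied, so how far this distance depends on it was not tested. Noncoding transcripts made up 33.2% to 38.7% of the sum in soma and 24.9% to 28.0% in neurites.

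Other RNAs of known location were set beside them. Of 25 other nuclear or chromatin-associated lncRNAs, 9 were tested, with a median of −0.32, and 4 were higher in soma and none in neurites. This is close to the 35.3% and the median of −0.28 of all noncoding genes tested. Xist, which coats the inactive X chromosome, had 84.5 to 99.6 TPM in soma and 44.7 to 62.0 TPM in neurites (−0.88, adjusted p = 0.000719). Tug1 (−0.58, adjusted p = 0.00246), Snhg14, the imprinted host transcript at the Ube3a locus (−0.54, adjusted p = 0.0424), and Peg13, an imprinted RNA (−0.41, adjusted p = 0.00224), were also higher in soma. Ipw (0.00) and Pvt1 (−0.06) were among the 5 that were not called. Of 18 nuclear small RNAs, 6 were tested and 5 were higher in soma, with a median of −0.59. The shares higher in soma were 18.6% of all genes and 35.3% of noncoding genes. Rnu11 and Rnu12, small nuclear RNAs of the minor spliceosome, had the lowest ratios, −2.30 (adjusted p = 0.000437) and −1.66 (adjusted p = 0.000439). Rnu6, the U6 RNA of the major spliceosome, had −0.70 (adjusted p = 0.00473). Rmrp, the RNA of RNase MRP, had −0.49 (adjusted p = 0.00338).

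Of 16 lncRNAs known mainly from the cytoplasm or neurites, 13 were tested, with a median of −0.07. Of these, 5 were higher in neurites, 1 was higher in soma and 7 were not called. The shares of all genes were 19.4% and 18.6%, and 35.3% of noncoding genes were higher in soma. Epb41l4aos (0.39, adjusted p = 0.00455) and Zfas1 (0.25, adjusted p = 0.00448), both hosts of small nucleolar RNAs, were higher in neurites. Bc1, a small RNA known from dendrites, was the one higher in soma (−0.71, adjusted p = 0.0119), and Snhg3 had −0.39 (adjusted p = 0.0764). The lists were chosen with results of these data known and were not tested as lists.

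**Figure D4:**
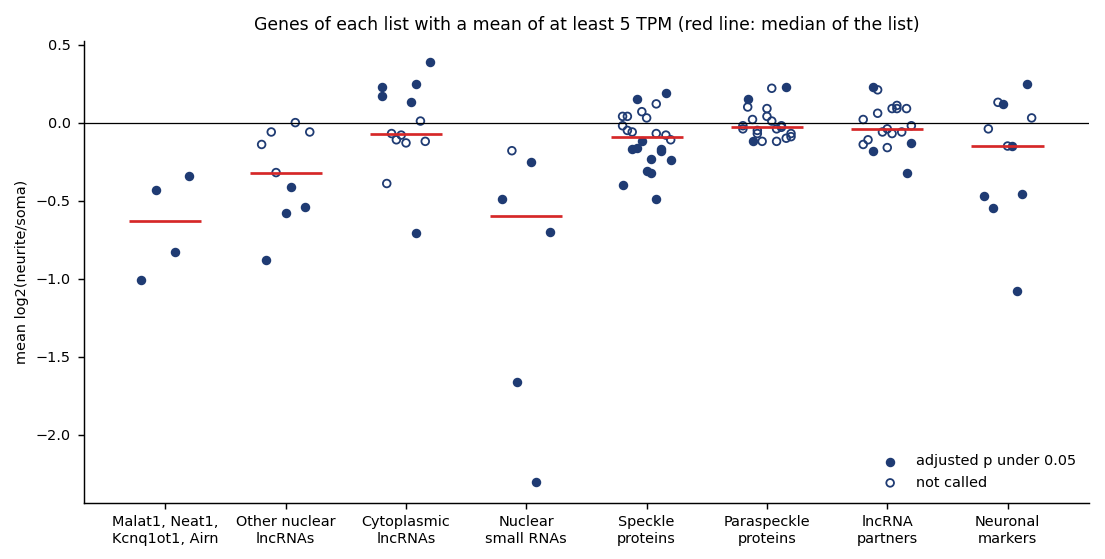
Mean log2(neurite/soma) of the genes with a mean of at least 5 TPM in 8 lists, filled where the limma adjusted p was under 0.05, with the median of each list in red. The medians are −0.63 for the described lncRNAs, −0.32 for other nuclear lncRNAs, −0.59 for nuclear small RNAs and −0.07 for cytoplasmic lncRNAs.

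The mRNAs of the proteins with which these lncRNAs work were measured too. Of 21 paraspeckle proteins, which assemble on Neat1, all were tested, 2 were higher in neurites, 1 was higher in soma, and the median was −0.03. The shares of all genes were 19.4% and 18.6%. The one higher in soma was Sfpq, an essential paraspeckle protein (−0.12, adjusted p = 0.0347), and Hnrnpa1 (0.23, adjusted p = 0.0107) and Tardbp (0.15, adjusted p = 0.0268), both RNA-binding proteins, were higher in neurites. The value of Rbm14 was 0.22 (adjusted p = 0.0616). Of 24 nuclear speckle proteins, 11 were higher in soma and 2 in neurites, with a median of −0.10, beside 18.6% and 19.4% of all genes and their median of 0.01. Srrm2, a scaffold of speckles, had the lowest ratio (−0.49, adjusted p = 0.000579), followed by Srrm1 (−0.40, adjusted p = 0.00111), the splicing kinase Prpf4b (−0.32, adjusted p = 0.00575) and the splicing factor Rbm25 (−0.31, adjusted p = 0.00895). Of 20 proteins that process lncRNAs or act with them on chromatin, 19 were tested, 4 were higher in soma and 1 in neurites, a share in soma near the 18.6% of all genes. Ythdc1, the nuclear reader of methylated adenosine, had −0.32 (adjusted p = 0.0013), and Xrn2, a nuclear exonuclease, −0.18 (adjusted p = 0.0110). Ehmt2, the histone methyltransferase G9a that acts with Airn, had 0.23 (adjusted p = 0.00373), and Ring1 had 0.21 (adjusted p = 0.0614).

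The genes next to Malat1 and Neat1 on chromosome 19 did not share their direction. Of 8 neighbours, 6 were tested, 3 were higher in neurites and 1 in soma, beside 19.4% and 18.6% of all genes. Fam89b (0.51, adjusted p = 0.000631), Frmd8 (0.36, adjusted p = 0.0166) and Dpf2 (0.12, adjusted p = 0.0456), a chromatin remodelling subunit, were higher in neurites. Ltbp3, a binding protein of latent TGF-β, was higher in soma (−0.25, adjusted p = 0.00886). Of the 11 tested markers of neuroblastoma and neurons, 5 were higher in soma and 2 in neurites, beside 18.6% and 19.4% of all genes. Their median was −0.15. Chgb, a protein of secretory granules, had −1.08 (adjusted p = 0.000235), a ratio as low as that of Airn. Ncam1, a cell adhesion molecule, had −0.55 (adjusted p = 0.000579), Chga −0.47 (adjusted p = 0.000524) and Stmn2, a regulator of microtubules, −0.46 (adjusted p = 0.000631). A ratio in the range of the nuclear lncRNAs was therefore also found for mRNAs.

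Ratios differed between classes of transcript length, though not in one direction throughout. The 1266 tested transcripts of at least 6000 nt, to which Malat1, long Neat1 and Kcnq1ot1 belong, had a median ratio of −0.11 and 26.5% were called higher in soma. Those of 1000 to 2000 nt (2392) had a median of 0.08 and 8.86% were called. The 987 under 1000 nt, among them the Airn transcript NR_027772 with its ratio of −1.27, had a median of 0.02 and 14.1% were called. The part of length in the ratios of the nuclear lncRNAs was not tested. Malat1 and Kcnq1ot1 were low in GC (42.5% and 40.3%, against a median of 50.7%). They were also low in YGCY motifs (C or T, then GC, then C or T), the motif bound by MBNL proteins, with 8.45 and 8.41 per 1000 bases against a median of 15.7. Long Neat1 had 14.1 and short Neat1 16.0 per 1000 bases, close to that median. The Airn transcript NR_027772 had 11.5 and Meg3 13.5 per 1000 bases. Only the transcript strand was searched, and overlapping matches were counted.

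Across the 10 libraries, the levels of the 4 tested members ran together, with Pearson's r on log2 TPM of 0.934 between Malat1 and Neat1 and between Kcnq1ot1 and Airn, and of 0.801 between Neat1 and Airn. All of these values share the split of the libraries into soma and neurites. Among the genes with a mean of at least 20 TPM, Akap12 (0.978), Cbl (0.972) and Nktr (0.963) were most like Malat1. Soga1 (0.961), Cmtm3 (0.960) and A130077B15Rik (0.952) were most like Neat1. For Kcnq1ot1 these were Grk4 (0.996), A630089N07Rik (0.995) and Vcl (0.990), and for Airn they included Cox5b (0.976) and Arid1a (0.973). The genes named here all had negative ratios, from −1.26 for A630089N07Rik to −0.17 for Cbl. Such ratios follow from choosing genes by likeness to members that were lower in neurites.

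The second comparison asked whether the ratios differed between the 3 perturbed transfections and the 2 controls. None of the members passed. Of the 9853 genes, 0 were called by limma (0% of those tested), and 522 had an unadjusted p under 0.05. That number is near the 1 in 20 that chance gives at this threshold. The mean ratio of Malat1 was −0.54 in perturbed and −0.28 in control transfections, a difference of −0.26 (SE 0.149, adjusted p = 0.970). Neat1 differed by −0.15 (SE 0.137, adjusted p = 0.975) and Kcnq1ot1 by −0.09 (SE 0.193, adjusted p = 0.996). Airn differed by 0.31 (SE 0.329, adjusted p = 0.975), higher in perturbed transfections. With errors of this size, differences of the order of those seen cannot be told from 0. Leaving out 1 transfection moved the difference of Malat1 from −0.43 (without CTG0) to −0.08 (without the Kif1bβ tail), and that of Airn from 0.07 (without the Kif1bα tail) to 0.65 (without CTG480). For Neat1 the sign of the difference rested on the Kif1bβ tail, without which it was 0.04. That of Kcnq1ot1 was 0.05 without CTG480 and 0.03 without the Kif1bβ tail.

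The median ratio of the 4 tested members was −0.68 in CTG0, −0.87 in CTG480, −0.37 in the Kif1bα tail, −0.38 in the Kif1bβ tail and −0.70 in the Kif1c tail, while the median of all genes was 0.00 to 0.02. The order of transfections was not the same for each RNA. Malat1 and Neat1 both had their lowest ratio in the Kif1c tail and their highest in the Kif1bβ tail. Kcnq1ot1 and Airn both had their lowest ratio in CTG480 and their highest in the Kif1bα tail, although for Kcnq1ot1 both Kif1b tails had the same ratio of −0.65 to 2 decimals.

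Each perturbation was then set against its own control, as differences between single ratios with no test. In CTG480 against CTG0, 13.2% of all genes were lower by at least 0.25 and 13.8% were higher. Of the 4 tested members, Kcnq1ot1 was just past this limit (−0.26) and Airn just short of it (−0.24), with Malat1 at −0.12 and Neat1 at 0.08. Kcnq1ot1 also fell short of the limit with a pseudocount of 1 TPM (−0.23) and with the same sum over all transcripts (−0.24). The 2 Airn transcripts went opposite ways, by −1.57 for NR_027772 and 0.71 for NR_027784. For Kcnq1ot1 the level was 0.10 higher in soma and 0.16 lower in neurites on the log2 scale. Meg3 differed by −0.67 at levels under 1 TPM, and Rian by −0.02.

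In the Kif1bα tail against the Kif1bβ tail, 12.7% of genes were lower and 13.8% higher by at least 0.25. Airn was higher by 0.66, and the other 3 tested members lay between −0.24 and 0.00. Summed Airn was at 13.2 TPM in soma of the Kif1bα and 20.5 TPM in soma of the Kif1bβ tail, whereas neurites had 9.93 and 9.75 TPM. Its transcripts did not share this pattern. NR_027772 differed by −0.28 in soma and 0.53 in neurites on the log2 scale, and NR_027784 by −1.08 and −0.64. In the Kif1c tail against the same Kif1bβ tail libraries, 14.9% of genes were lower and 15.2% higher by at least 0.25. Malat1 differed by −0.60, Neat1 by −0.48, Airn by 0.37 and Kcnq1ot1 by −0.14. The value of Airn came from NR_027784 (0.76), with NR_027772 at −0.02. Malat1 was higher in soma by 0.30 and lower in neurites by 0.30, and Neat1 higher in soma by 0.29 and lower in neurites by 0.19. Both tail comparisons share their control libraries, and the Kif1bβ tail is the transfection in which Malat1 and Neat1 had the ratio nearest to 0. Rian differed by −0.16 and 0.11 and Meg3 by 0.02 and −0.54 in the 2 tail comparisons.

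**Figure D5:**
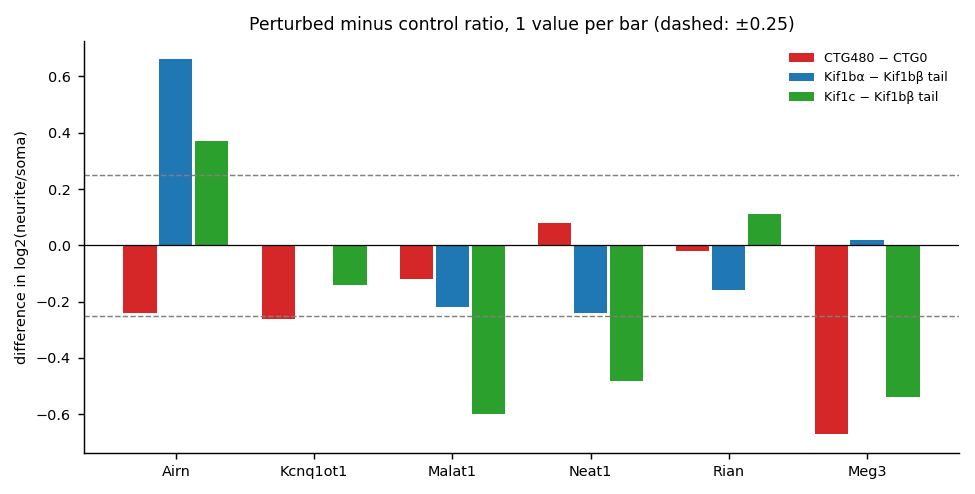
Difference in log2(neurite/soma) between each perturbed transfection and its control for the 6 RNAs, with 1 value per bar and dashed lines at ±0.25. Airn reaches 0.66 in the Kif1bα tail, and Malat1 reaches −0.60 and Neat1 −0.48 in the Kif1c tail.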

How the data were processed

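The deposited signal values are linear TPM: the authors used bcl2fastq 2.20 and then kallisto 0.43.0 against RefSeq of mm10, and normalized TPM between libraries by cyclic loess. Of 17300 rows, 5 plasmid rows and 3 without a gene name were left out. A second deposited table, of the authors' log2 ratios, holds none of these RNAs and was not used. Transcripts were summed by gene. Neurite and soma libraries were compared with limma 3.58.1 in R 4.3.3 (lmFit, eBayes with a trend) on log2(TPM + 0.1) for genes with a mean of at least 5 TPM, with transfection as a block, two-sided. The threshold was a p of 0.05 after Benjamini-Hochberg adjustment over all genes tested. Fold changes of low genes are understated on this scale. The 3 perturbed and 2 control transfections were compared in the same way on 5 ratios per gene. Deviations from the fraction means correlated at −0.03 to 0.05 within the 5 transfections and −0.12 to 0.10 in the 20 other pairs. The procedures were tested on simulated data. Transcript models and sequences came from GENCODE vM21, which matched 96.8% of the tested transcripts. Named genes were all members, up to 4 genes per list with the largest ratios, and the 3 genes most like each tested member, of which 1 is not reported here; Ipw and Pvt1 are outside this rule and were chosen after their values were seen. The members and lists were chosen with earlier results of these data known. Python 3.11.15, pandas 2.3.3, scipy 1.17.1 and matplotlib 3.10.9 were used.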

Additional observations from a re-analysis of the deposited data

Results flagged for a closer look

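Among 30 groups of 5 values (levels in soma, levels in neurites and ratios of each RNA or form), 1 held a value far from the others, where chance gives about 1 in 20. This was short Neat1 in neurites of the Kif1bβ tail, at 31.3 TPM beside 26.5 to 27.5 TPM in the other 4 neurite libraries. The same form had a log2(neurite/soma) of 0.23 in the Kif1bβ tail, above 0, and below 0 in the other 4 transfections. Meg3 had a ratio of 0.32 in CTG0 and ratios below 0 in the other 4 transfections, at levels of 0.145 to 0.407 TPM. With 1 library per transfection and fraction, neither difference in direction was tested.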

How the results depend on the processing

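With the same sum over all transcripts, 2 in place of 4 nuclear lncRNAs were called higher in soma, while all genes called were 203 higher in soma and 7093 higher in neurites, in place of 1835 and 1911. Malat1 was then at −0.10 (adjusted p = 0.335) and Neat1 at 0.00 (adjusted p = 0.973), as the median of all genes moved to 0.35. With the same sum over protein-coding transcripts these were 893 and 4339 genes, and all 4 nuclear lncRNAs were called. Leaving out 1 transfection at a time kept all 4 called, with 1357 to 1646 genes higher in soma and 1281 to 1707 higher in neurites. All 4 were also called without the block for transfection (−0.34 for Neat1 to −1.01 for Airn), with a pseudocount of 0.01 or 1 TPM, and with a minimum of 1 TPM or none. No nuclear lncRNA was called between perturbed and control transfections under any alternative. With 1 transfection left out, that difference ran from −0.34 to 0.04 for Neat1, changing sign without the Kif1bβ tail, and from −0.22 to 0.05 for Kcnq1ot1, changing sign without CTG480 (0.05) or the Kif1bβ tail (0.03). Single transcripts with no minimum were added after seeing the data. The labels give no replicate numbers, so no pairing beyond the transfection was possible. Low levels limit Meg3 and Rian most.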
